A study of Rattus norvegicus with 43 samples.

Results

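Insig1 is the endoplasmic reticulum protein that holds back cholesterol synthesis when sterol is plentiful. Among 7 tested members of an 8-gene set of cholesterol synthesis genes, it alone passed an F test between diets in rat distal colon. Its mean was lowest in the diet coded HAMSB. Of all genes tested 31% passed the F test, and Insig1 missed it (adjusted p = 0.0664) with the naming pattern of the scan files as a block. The set holds 7 enzymes of the pathway, Hmgcs1, Idi1, Fdft1, Sqle, Lss, Cyp51 and Dhcr7, together with Insig1. Where several probe sets carried a gene's symbol, the brightest on average stood for the gene. Of the 8 genes 7 were analysed, and these 7 all passed the filter on low signal, among 10828 genes tested. Hmgcs1 was not analysed here. The measured members cover synthesis and its feedback control.

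The arrays were Affymetrix gene arrays hybridised with 100 ng of total RNA from the distal colon of Sprague Dawley rats aged 11 weeks, and each array came from a different animal. The labels name the diets by code. From what is known of the study, they are a Western-type diet with butyrylated high-amylose maize starch (HAMSB, 9 arrays), with high-amylose wheat (HAW, 8), with low-amylose wheat (LAW, 6), with high-amylose maize starch (HAMS, labelled HAM, 8) or with low-amylose maize starch (LAMS, 7), and a control diet (CON, 5). Amylose-rich starch resists digestion in the small intestine and is fermented by colonic bacteria. Butyrylated starch carries ester-bound butyrate that is released in the colon.

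Values are on the log2 scale, so a difference of 1 is a doubling. The tissue is a piece of colon wall rather than isolated cells: 18 of 19 listed epithelial markers were tested, with a mean level of 10.1 to 10.6 by diet, and 13 of 14 smooth muscle markers had a mean of 9.96 to 10.5. HAMS had the highest mean over the 10 tested of 19 B cell markers, 7.62 ± 1.39 (SD, n = 8), against 6.00 to 6.48 in the other diets. It also had the lowest epithelial mean, 10.1 ± 0.41. The diets overlapped: B cell levels ran from 5.37 to 9.21 in HAMS and from 5.29 to 8.78 in HAW. Of the 10 B cell markers 0 passed the F test described below, against 31% of all genes. Single comparisons did call some of them. In HAMSB minus HAMS 3 of the 10 were lower and 0 were positive, with a median of -1.57, where 17% of all genes were called. There all 18 epithelial markers were positive and 5 passed, and all 13 smooth muscle markers were positive and 4 passed. Of all genes 60.9% were positive there. In such bulk RNA, fewer cells of a type and less RNA per cell cannot be told apart.

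Cholesterol is built from acetyl-CoA through mevalonate. Hmgcs1 makes the precursor of mevalonate, Idi1 interconverts the isoprenoid building blocks, Fdft1 joins farnesyl units to squalene, Sqle oxidises squalene, Lss closes it to lanosterol, and Cyp51 and Dhcr7 carry out later sterol steps, Dhcr7 close to the end. The genes are switched on together by the transcription factor SREBP-2 when sterol is short. INSIG1 retains the SREBP escort protein SCAP in the endoplasmic reticulum, and its own gene is a target of SREBP in mammalian cells.

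Promoter sequence is given for 3 members because they represent the feedback regulator and an early and a later enzyme of a gene set whose levels moved together between animals. RefSeq sequence of the rat build GRCr8 was available for 6 of the 8 members. Each line below holds the 250 bases before the start used in RefSeq's promoter table, read on the gene's own strand, at chr4:8057770-8058019 for Insig1, chr17:66547525-66547774 for Idi1 and chr20:12118231-12118480 for Lss, all on the minus strand. For Insig1 that start lies inside the gene span given below, so the last bases of its window overlap the annotated gene. Capitals mark CCAAT, the binding site of NF-Y, a factor that works with SREBP at many sterol genes, here in its reverse form.
Insig1: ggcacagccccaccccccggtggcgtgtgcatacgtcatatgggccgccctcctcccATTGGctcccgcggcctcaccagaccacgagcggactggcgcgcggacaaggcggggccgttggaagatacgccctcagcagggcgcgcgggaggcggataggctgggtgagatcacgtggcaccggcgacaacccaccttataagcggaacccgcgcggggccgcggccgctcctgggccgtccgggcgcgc
Idi1: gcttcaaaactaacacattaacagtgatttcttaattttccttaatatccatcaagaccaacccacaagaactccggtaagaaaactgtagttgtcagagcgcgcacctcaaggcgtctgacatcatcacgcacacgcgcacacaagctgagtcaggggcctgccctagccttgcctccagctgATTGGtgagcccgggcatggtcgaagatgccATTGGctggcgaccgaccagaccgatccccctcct
Lss: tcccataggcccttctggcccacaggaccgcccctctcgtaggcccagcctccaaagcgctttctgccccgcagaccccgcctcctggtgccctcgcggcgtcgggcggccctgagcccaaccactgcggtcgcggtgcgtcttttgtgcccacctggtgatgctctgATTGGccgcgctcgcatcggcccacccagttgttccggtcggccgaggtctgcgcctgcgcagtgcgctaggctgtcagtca
A CCAAT on either strand was found in 4 of the 6 member promoters, against 34.3% of all 27457 promoters of this length. The 3 windows shown and that of Hmgcs1 hold it. The windows of Cyp51 and Dhcr7, which are not shown, do not hold it. The CCAAT match began 193 bases before the start in Insig1, 66 and 35 bases before it in Idi1 and 82 bases before it in Lss. The letters TCACNCCAC, 1 form of the sterol regulatory element, were in 0 of 6 member windows and in 0.976% of all windows. GGGCGG, the GC box, was in 5 of 6, against 32.4% of all. The motifs were searched separately on both strands, so that 1 base could belong to more than 1 match. These matches describe the letters in these windows.

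Insig1 (chromosome 4, 8049339 to 8057812, GRCr8) averaged 9.06 ± 0.28 in HAMSB (SD, n = 9), against 9.69 ± 0.43 in HAW (n = 8), 9.58 ± 0.37 in LAW (n = 6), 9.63 ± 0.35 in the 8 HAMS arrays, 9.57 ± 0.24 in LAMS (n = 7) and 9.40 ± 0.29 in CON (n = 5). In HAMSB the lowest, median and highest arrays read 8.71, 9.00 and 9.52. They read 8.95, 9.76 and 10.28 in HAW and 9.22, 9.43 and 10.10 in LAW. HAMS arrays read 9.25, 9.59 and 10.05, and LAMS arrays 9.22, 9.66 and 9.89. The 5 CON arrays read 9.34, 9.81, 9.09, 9.54 and 9.20, within the range of the other diets. All 9 HAMSB arrays lay below the median of the 29 arrays of the other Western diets, and 17 of those 29 lay above the highest HAMSB array, so the groups overlapped in part.

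A linear model with 1 mean per diet was fitted to every gene with limma, and p-values were adjusted over all genes by the method of Benjamini and Hochberg, with a threshold of 0.05. Insig1 changed over the 6 diets (moderated F test, adjusted p = 0.0191), and it was the 1 of 7 members that did, while 31% of all genes tested passed. It fell in HAMSB relative to HAMS by 0.57 ± 0.16 (SE), a ratio of 0.675 (adjusted p = 0.0134), where 1 of 7 members and 17% of all genes passed. It fell relative to HAW by 0.63 ± 0.16 (adjusted p = 0.0146), with 9.32% of all genes passing, and relative to LAW by 0.52 ± 0.17 (adjusted p = 0.0327), with 17.3% passing. These 2 wheat comparisons were added after the values had been seen. HAMSB minus LAMS, at -0.51 ± 0.16, just missed the threshold (adjusted p = 0.0505), with 0 of 7 members and 6.84% of all genes passing. HAMSB minus CON was -0.34 ± 0.18 (adjusted p = 0.277; 95% interval -0.70 to 0.03; with array spread as a covariate -0.11 and 0.932), where 0 of 7 members and 0.84% of all genes passed.

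**Figure D1:**
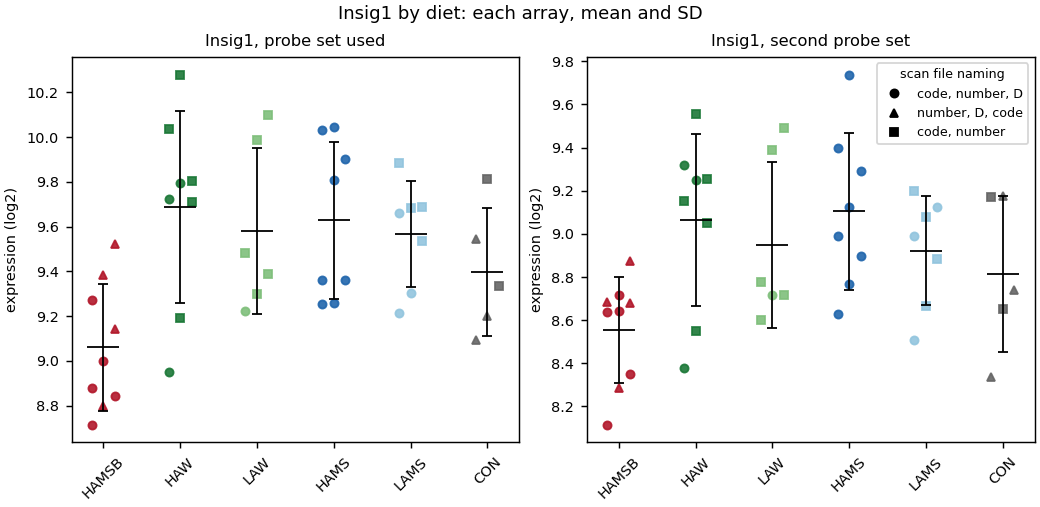
Expression (log2) of Insig1 in each of the 43 arrays by diet, for the probe set used and for the second one; points are arrays, their shape is the naming pattern of the scan file, and bars are the mean and SD. HAMSB has the lowest mean in both panels, 9.06 and 8.55.

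A second probe set for Insig1 gave the same order at the low end. It averaged 8.55 ± 0.25 in HAMSB, against 9.06 ± 0.40 in HAW, 8.95 ± 0.39 in LAW, 9.10 ± 0.36 in HAMS, 8.92 ± 0.25 in LAMS and 8.81 ± 0.36 in CON. With all probe sets in the fit, its HAMSB minus HAMS difference was -0.55 (adjusted p = 0.0163) and its HAMSB minus HAW difference -0.51 (adjusted p = 0.035). The differences from LAW, -0.39 (adjusted p = 0.0959), and from LAMS, -0.37 (adjusted p = 0.146), did not pass, nor did its F test (adjusted p = 0.0505). The 2 probe sets varied together around the diet means, with r = 0.889 over 43 arrays.

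The scan files were named in 3 patterns that were spread unevenly over the diets, and the labels do not say what the patterns stand for. Within the 1 pattern that all HAMS arrays share, Insig1 was 8.94 ± 0.21 in 5 HAMSB arrays and 9.63 ± 0.35 in 8 HAMS arrays, a difference of -0.69 (exact permutation p = 0.00466, two-sided; adjusted over 6 such tests 0.0186). In the same pattern the difference was -0.55 from 3 HAW arrays (exact permutation p = 0.107) and -0.45 from 3 LAMS arrays (exact permutation p = 0.0714); with 5 against 3 arrays the smallest possible p is 0.0357. With the naming pattern as a block in the limma fit, HAMSB minus HAMS was -0.66 (adjusted p = 0.00454). The differences from HAW, -0.48 (adjusted p = 0.136), from LAW, -0.30 (adjusted p = 0.541; with array spread as a covariate -0.39 and 0.0794), and the F test (adjusted p = 0.0664) then missed the threshold. Leaving out single arrays kept the HAMSB minus HAMS and HAMSB minus HAW calls in 17 of 17 fits each. HAMSB minus LAW passed in 8 of 15 such fits: it missed the threshold without HAMSB replicate 2, 3, 4 or 5 or LAW replicate 3, 4 or 5, with an adjusted p of up to 0.113. HAMSB minus LAMS passed in 4 of 16, without LAMS replicate 1 or 5 or HAMSB replicate 6 or 9, with an adjusted p of 0.0238 at the lowest. With the mean epithelial marker level as a covariate, HAMSB minus HAMS grew to -0.73 but its adjusted p was 0.141, in a fit where 1 of 10828 genes passed for this comparison.

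Lss (chromosome 20, 12090641 to 12118230), the enzyme that closes the sterol ring system, was lowest in CON. Its CON arrays read 7.80, 7.80, 7.36, 7.38 and 6.87. Replicates 1 and 2, both at 7.80, shared 1 naming pattern of the scan files, and replicates 3, 4 and 5 shared another. Lss averaged 7.71 ± 0.15 in HAMSB, 7.79 ± 0.33 in HAW, 8.03 ± 0.24 in LAW, 7.67 ± 0.27 in HAMS and 7.86 ± 0.23 in LAMS, against 7.44 ± 0.39 in CON. Of the 38 Western-diet arrays, 36 lay above the CON median, 19 above the highest CON array and 0 below the lowest. LAW was the highest diet, with lowest, median and highest arrays of 7.77, 8.00 and 8.46, and 5 of its 6 arrays exceeded every CON array. The mean of the 5 Western diets minus CON was 0.37 ± 0.13 (95% interval 0.12 to 0.62), with an adjusted p of 0.109 by limma, where 0 of 7 members passed and 1.45% of all genes did. LAW minus CON was 0.58 ± 0.16 (adjusted p = 0.135), with 0 of 7 members and 0.0462% of all genes passing. LAMS minus CON was 0.42 ± 0.15 (adjusted p = 0.369), and HAW minus CON 0.35 ± 0.15 (adjusted p = 0.449); in each of these 0 of 7 members and 0% of all genes passed. With the naming pattern as a block, the adjusted p by limma was 0.212 for the Western mean minus CON and 0.288 for LAW minus CON. The F test for Lss had an adjusted p of 0.0535, and of 0.269 with that block. In the 43 fits that left out 1 array, without the block, the adjusted p of the F test ranged from 0.0334 to 0.129 and passed in 12. CON replicate 5, at 6.87, had the largest effect on the difference from CON: without it the Western mean minus CON was 0.23.

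Idi1, Fdft1, Sqle, Cyp51 and Dhcr7 did not pass in any of the 15 comparisons or in the F test (adjusted p 0.33 to 0.698). Idi1 (chromosome 17, 66539761 to 66547524) averaged 6.65 ± 0.30 in HAMSB, 6.68 ± 0.45 in HAW, 6.69 ± 0.41 in LAW, 6.64 ± 0.59 in HAMS and 6.63 ± 0.47 in LAMS, against 6.26 ± 0.36 in CON. Its CON arrays read 6.76, 5.80, 6.09, 6.24 and 6.42, and the Western arrays ran from 5.86 to 7.54, so CON lay in the lower part of a shared range. The Western mean minus CON was 0.40 ± 0.20 for Idi1 (95% interval -0.01 to 0.80; adjusted p = 0.315). HAMS minus CON was 0.38 for Idi1, but 0.95 with array spread as a covariate (adjusted p = 0.0196 by limma, 3.08% of all genes passing) and 0.76 with the naming pattern as a block (adjusted p = 0.0432, 20.2% passing), and its F test passed with array spread (adjusted p = 0.0468).

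Fdft1 (chromosome 15, 41588114 to 41616168) averaged 8.72 ± 0.26 in HAMSB, 8.58 ± 0.41 in HAW, 8.70 ± 0.39 in LAW, 8.37 ± 0.41 in HAMS and 8.50 ± 0.29 in LAMS, against 8.41 ± 0.27 in CON. Its HAMSB arrays had a lowest, median and highest value of 8.44, 8.65 and 9.32, against 7.73, 8.27 and 9.01 in HAMS. The difference HAMSB minus HAMS was 0.35 ± 0.16 (95% interval 0.02 to 0.68; adjusted p = 0.117). Sqle (chromosome 7, 92758175 to 92773049), the epoxidase that starts the oxygen-dependent part of the pathway, had the same kind of values: 8.37 ± 0.27 in HAMSB and 8.36 ± 0.35 in HAW, 8.11 ± 0.18 in LAW, 8.09 ± 0.35 in HAMS and 8.27 ± 0.36 in LAMS, against 8.16 ± 0.36 in CON. HAMSB minus HAMS was 0.28 ± 0.15 for Sqle (adjusted p = 0.185).

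Cyp51 (chromosome 4, 30991693 to 31010147), the lanosterol demethylase, averaged 9.70 ± 0.20 in HAMSB, 9.80 ± 0.47 in HAW, 9.90 ± 0.36 in LAW, 9.62 ± 0.42 in HAMS and 9.75 ± 0.45 in LAMS, against 9.57 ± 0.23 in CON. Dhcr7 (chromosome 1, 208444434 to 208460408) averaged 7.27 ± 0.22 in HAMSB, 7.32 ± 0.19 in HAW, 7.23 ± 0.38 in LAW, 7.06 ± 0.28 in HAMS and 7.18 ± 0.19 in LAMS, against 7.12 ± 0.21 in CON. The 6 diet means of Cyp51 spanned 0.32, less than its SD of 0.37 between animals of a diet. Those of Dhcr7 spanned 0.26, about its SD of 0.25. HAW minus HAMS was 0.26 ± 0.12 for Dhcr7 (adjusted p = 0.139).

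**Figure D2:**
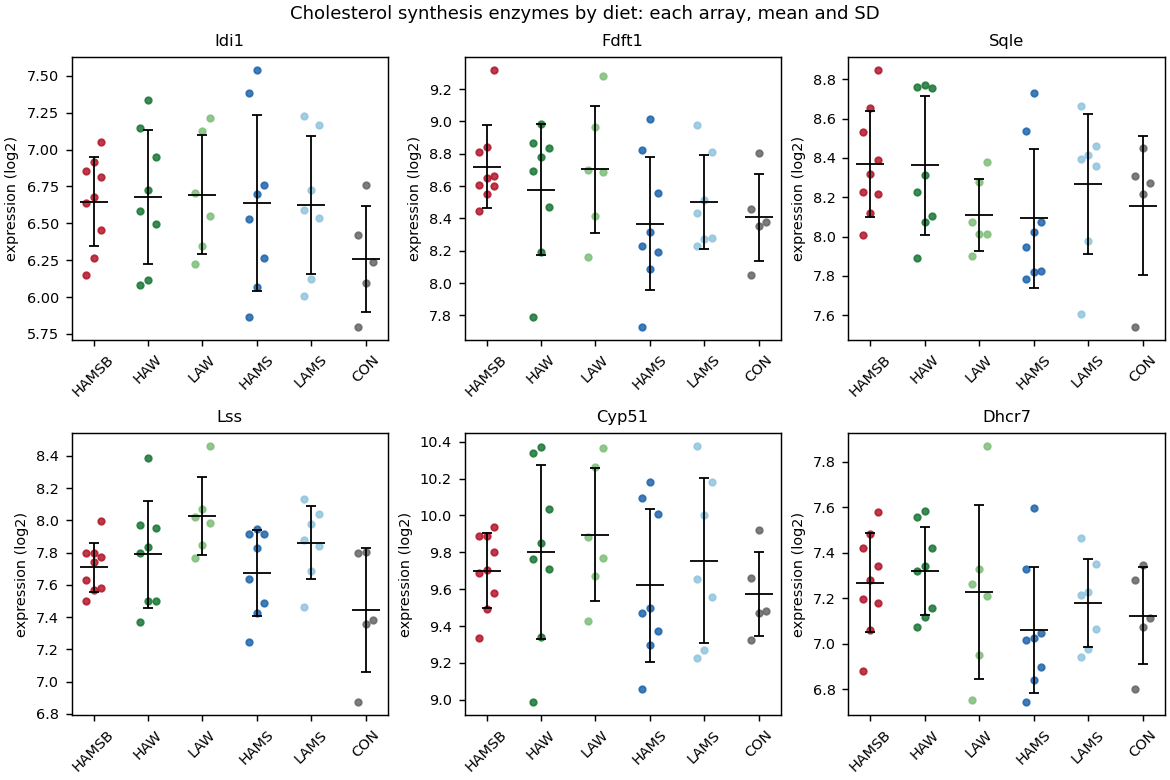
Expression (log2) of the 6 measured enzymes in each array by diet; points are arrays, and bars are the mean and SD. CON has the lowest mean for Idi1, Lss and Cyp51, and the diets overlap for each enzyme.

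Most members had higher means in the Western diets than in CON, and 0 of these differences passed. The 7 members were positive in 7 of 7 cases in LAMS minus CON, HAW minus CON and the mean of the Western diets minus CON, with median differences of 0.17, 0.23 and 0.17, where the medians over all genes were -0.04, -0.06 and -0.07. These comparisons share the same 5 CON arrays. The members also varied together between animals, as described below, so their signs are not independent of each other. HAMSB minus CON was positive for 6 of 7 members, with Insig1 the negative one, and LAW minus CON also for 6 of 7, with Sqle at -0.05. HAMS minus CON was positive for 4 of 7 (median 0.05, against -0.14 over all genes), with 0 of 7 members passing where 26.2% of all genes passed.

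The remaining comparisons ask what amylose content and grain do. HAMS minus LAMS was negative for 5 of 7 members (median -0.13, against -0.09 over all genes), with 0 of 7 called and 14.2% of all genes called. HAW minus HAMS was positive for 7 of 7 (median 0.18, against 0.07), with 0 of 7 called and 13.3% of all genes called. In HAW minus LAW and in LAW minus LAMS 0 of 7 members and 0% of all genes passed. The interaction of amylose with grain (HAW minus LAW, less HAMS minus LAMS) was called for 0 of 7 members and for 0.0277% of all genes. At an unadjusted p under 0.05, limma gave 2 of 7 members in HAMSB minus HAMS and in HAMSB minus LAW, where 35.0% and 33.7% of all genes were that low, and 1 of 7 in HAMSB minus HAW (27.6% of all genes), HAMSB minus LAMS (26.2%) and HAW minus HAMS (32.8%). It also gave 1 of 7 in LAMS minus CON (8.64%), LAW minus CON (10.6%), HAW minus CON (9.87%) and the Western mean minus CON (16.8%). The count was 0 in HAMS minus CON (40.96%), HAMS minus LAMS (33.7%), HAMSB minus CON (20.6%), the interaction (15.3%), HAW minus LAW (1.93%) and LAW minus LAMS (1.74%). When the diets were ordered by their mean for each member, 0 of the 35 neighbouring pairs passed. Ordering by the same values makes these gaps small, so this count cannot show whether diets differ. Of all 105 tests of a member in a pair of diets 3 passed, all of Insig1 with HAMSB.

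**Figure D3:**
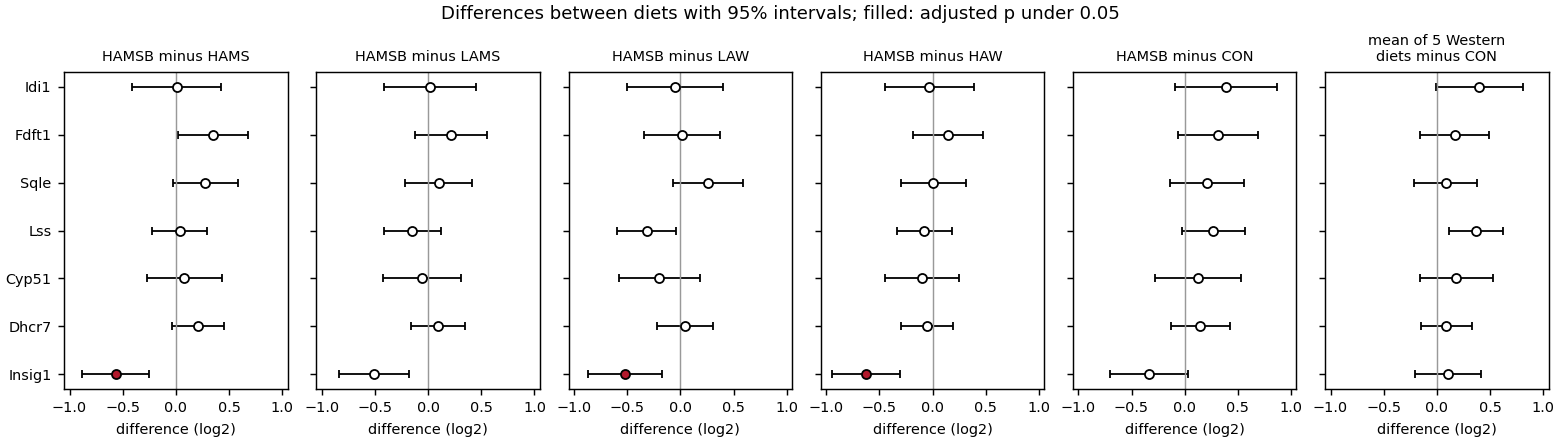
Differences (log2) of the 7 measured members in 6 comparisons with 95% intervals from limma; filled points have an adjusted p under 0.05. Insig1 lies left of 0 in each HAMSB comparison, at -0.34 to -0.63, and right of 0, at 0.11, in the Western mean minus CON.

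The members' levels also differed between animals on the same diet, and they did so together. After each diet mean was removed, all 21 pairs of members correlated positively over the 43 arrays, with a median Pearson r of 0.577, whereas the median over all 58617378 gene pairs was 0.0408. Fdft1 and Cyp51 had the highest correlation, r = 0.839 and Spearman's rho = 0.844 (permutation within diets, p = 1e-05 for each, the smallest that 100000 permutations can give; adjusted over the 21 pairs 3e-05). Idi1 and Cyp51 followed at r = 0.836. Sqle and Lss had the lowest, r = 0.198 and rho = 0.218 (permutation p = 0.257 and 0.194). Leaving out the 2 arrays farthest from the median of the first gene gave r = 0.805 for Fdft1 and Cyp51 and 0.175 for Sqle and Lss. Insig1 kept this pattern within diets, with r of 0.426 to 0.619 with the enzymes. Its diet mean was lowest in HAMSB. Those of Fdft1 and Sqle were highest there, but by only 0.017 over LAW and 0.007 over HAW (adjusted p = 0.959 and 0.983 by limma). Those of the other measured enzymes were highest in LAW or HAW.

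**Figure D4:**
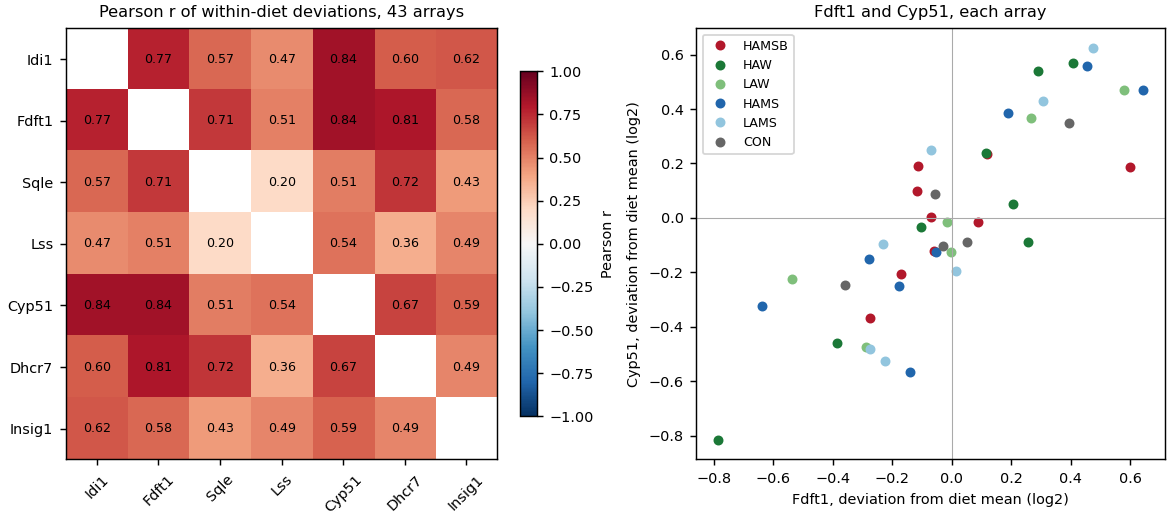
Left, Pearson r between the 7 measured members over 43 arrays after removal of each diet mean; right, deviations (log2) of Fdft1 and Cyp51 in each array, coloured by diet. All 21 correlations are positive, from 0.198 to 0.839.

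Single animals therefore stood out across the set. HAW replicate 8 had the lowest array of its diet for 5 of the 7 members, Idi1, Fdft1, Cyp51, Dhcr7 and Insig1, and the lowest mean deviation of all arrays. The interquartile range of its probe set values, the measure of array spread used here, was also the narrowest of the 43 arrays, 2.68. LAW replicate 5 was the highest array of its diet for 6 of the 7 members. CON replicate 2 was the lowest CON array for Idi1, Fdft1, Sqle, Cyp51 and Dhcr7 and the highest for Insig1, at 9.81. The mean deviation of the members moved with the mean of 13 proliferation markers (r = 0.713 within diets, n = 43), with the spread of the array (r = 0.594) and with the epithelial level (r = 0.536), and against the B cell level (r = -0.408); their part in the shared variation was not tested. With the array spread, epithelial and proliferation levels all removed, the median r of the member pairs was 0.387, with 20 of 21 pairs positive and the lowest at -0.01, and the median over all gene pairs was 0.000773.

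Outside the set, the gene most like the members' mean deviation was Msmo1, the sterol methyl oxidase that acts after Cyp51 in the same pathway (r = 0.851 over 43 arrays, ranked first of the tested genes that are not members). Cyb5b, a cytochrome b5, came next with r = 0.84, followed by Prkar2a, Ocrl, Fzd6, Aco1, Tm9sf2, Ext1, Il13ra1 and Copa, at 0.81 to 0.786. Of the other synthesis enzymes, Fdps, Nsdhl and Hsd17b7 had r of 0.719, 0.718 and 0.712, and Sc5d, Acat2, Mvk, Tm7sf2 and Ebp had r of 0.593 to 0.444. The 4 lowest were apart from these: Ggps1 had r = 0.175, Pmvk 0.113, Mvd -0.07 and Lbr -0.30. Srebf2, which encodes SREBP-2, had r = 0.272, and Apoe, a carrier of cholesterol out of cells, r = -0.529.

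The wider pathway was read from 6 lists of sterol and lipid genes, of which 67 of 79 were tested. Of the 19 tested synthesis genes, members other than Insig1 included, 0 passed the F test, against 31% of all genes. In the Western mean minus CON 16 of the 19 were positive, with a median of 0.09, whereas 32.5% of all genes were positive, and 0 passed. These signs are not independent, since the members among the 19 varied together between animals. In HAMSB minus HAMS 2 passed, where 17% of all genes did, in opposite directions: Lbr, a sterol reductase of the nuclear envelope, fell by 0.74 (adjusted p = 0.0306), and Sc5d, the sterol C5 desaturase, rose by 0.36 (adjusted p = 0.048). Both were named after their values were seen, and neither was rerun under the alternative settings.

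Of the further lipid genes described next, other than Insig2, 43 differences between diets were called in the 15 comparisons. Of these, 34 were lost with array spread as a covariate, 30 with the epithelial level, 27 with the naming pattern as a block, 25 with the B cell level and 21 with arrays centred on their median. The 3 that passed in all 13 other settings were the falls of Mbtps1 in HAMSB relative to LAMS and to HAW and of Fads2 in HAMS relative to CON.

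Among 13 tested genes of sterol sensing and SREBP control, Insig1 included, 4 passed the F test, a share near the 31% of all genes that passed. The smallest p belonged to Mbtps1, the site-1 protease that makes the first cut in releasing active SREBP. Mbtps1 averaged 9.09 ± 0.18 in HAMSB (n = 9), 9.52 ± 0.12 in HAW, 9.56 ± 0.13 in LAW, 9.22 ± 0.15 in HAMS and 9.51 ± 0.11 in LAMS, against 9.46 ± 0.16 in CON. It fell in HAMSB relative to LAMS by 0.42 ± 0.08 (adjusted p = 0.00471), to HAW by 0.42 ± 0.08 (adjusted p = 0.00283) and to LAW by 0.47 ± 0.08 (adjusted p = 0.00111), each also in every fit that left out 1 array. Relative to CON it fell by 0.37 ± 0.09 (adjusted p = 0.0429), in 5 of 14 such fits. Mbtps1 also fell in HAMS relative to LAMS by 0.28 ± 0.08 (adjusted p = 0.0207), but not without HAMS replicate 6 (adjusted p = 0.0593). HAMS minus CON was -0.24 for Mbtps1 (adjusted p = 0.0432). Unlike Insig1, it did not pass in HAMSB minus HAMS, at -0.13 ± 0.08 (adjusted p = 0.212). Rnf139, a ubiquitin ligase of the endoplasmic reticulum, was higher in HAMSB than in HAMS by 0.31 (adjusted p = 0.0148). Its HAMSB mean, 7.56 ± 0.13, was near that of CON, 7.55 ± 0.21, and HAMS had the lowest mean, 7.25 ± 0.14. HAMSB minus CON was 0.01 for Rnf139 (adjusted p = 0.965), and HAMS minus CON was -0.30 (adjusted p = 0.0289). Insig2, the paralogue of Insig1, had its lowest mean in HAMS rather than in HAMSB. It averaged 6.58 ± 0.24 in HAMSB and 6.42 ± 0.27 in HAMS, against 6.76 ± 0.19 in LAMS and 6.79 ± 0.13 in CON, and fell in HAMS relative to CON by 0.37 (adjusted p = 0.0232); it is named here after its values were seen. Srebf2 itself averaged 9.44 ± 0.11 in HAMSB and 9.37 ± 0.18 in HAMS, against 9.55 ± 0.10 in CON, and did not pass (F test, adjusted p = 0.129).

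Of the 8 tested genes of cholesterol uptake and release from lysosomes 6 passed the F test, against 31% of all genes. In HAMS relative to LAMS 4 of the 8 fell, where 14.2% of all genes were called, 1305 of 1536 of them lower. Vldlr, a lipoprotein receptor, averaged 5.57 ± 0.40 in HAMS against 6.26 ± 0.26 in LAMS and fell by 0.70 (adjusted p = 0.00914). It also fell in HAMSB relative to LAMS, by 0.51 (adjusted p = 0.0442), in 5 of 16 fits that left out 1 array. Lrp1, an endocytic receptor that mesenchymal cells also make, averaged 9.24 ± 0.45 in HAMS against 9.95 ± 0.20 in CON and fell by 0.72 (adjusted p = 0.00223). Cd36, a scavenger receptor and fatty acid transporter, rose in HAW relative to HAMS by 0.96 (adjusted p = 0.0108). Adipocyte markers were also higher there: all 11 tested were positive and 6 rose, where 61.0% of all genes were positive and 13.3% were called. Their mean level was 7.11 ± 0.45 in HAW and 6.30 ± 0.24 in HAMS, and their part in the Cd36 difference was not tested. Npc1, which exports cholesterol from lysosomes, averaged 8.57 ± 0.27 in HAMS against 9.00 ± 0.19 in LAMS and fell by 0.43 (adjusted p = 0.0244, and up to 0.0658 without HAMS replicate 2 or 6 or LAMS replicate 3 or 6). Npc2, its soluble partner, rose in HAMSB relative to LAW by 0.47 (adjusted p = 0.0119), while Npc1 fell there by 0.41 (adjusted p = 0.0267, and up to 0.0928 without LAW replicate 4, 5 or 6). Npc1l1, the intestinal cholesterol importer, averaged 5.11 ± 0.12 in HAMS against 4.85 ± 0.11 in CON, close to the filter's signal floor of 4.79. Its value was higher in HAMS than in CON by 0.26 (adjusted p = 0.0178, and up to 0.066 without CON replicate 1 or 2). So near the floor, this difference may not reflect a change in its RNA. These values stand beside the higher mean B cell level and the lower mean epithelial and smooth muscle levels of HAMS, and the part of cell composition in them was not tested.

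Of 10 tested genes of cholesterol efflux, storage and oxidation 1 passed the F test, against 31% of all genes. It was Cyp27a1, a sterol hydroxylase, which fell in HAMS relative to CON by 0.82 (adjusted p = 0.00680). Abca1, the cholesterol exporter, fell in HAMSB relative to LAW by 0.55 (adjusted p = 0.0233, and up to 0.0666 without LAW replicate 3, 4 or 5). Of 17 fatty acid synthesis genes 5 passed the F test, near the 31% of all genes. Fads2, the delta-6 desaturase, averaged 8.84 ± 0.16 in HAMSB, 8.79 ± 0.19 in HAW, 8.82 ± 0.22 in LAW, 8.60 ± 0.24 in HAMS and 8.84 ± 0.18 in LAMS, against 9.27 ± 0.22 in CON. It fell in HAMS relative to CON by 0.67 (adjusted p = 0.000385) and in the Western mean relative to CON by 0.49 ± 0.10 (adjusted p = 0.016, and up to 0.124 without CON replicate 1, 3 or 4). Acacb, the mitochondrial acetyl-CoA carboxylase, was higher in HAMSB than in HAMS by 0.41 (adjusted p = 0.00383). Fasn, fatty acid synthase, was higher there by 0.27 (adjusted p = 0.030, and up to 0.0808 without HAMS replicate 2, 6 or 8 or HAMSB replicate 1). For both, HAMS had the lowest mean and HAMSB was near CON. The means in HAMSB, HAMS and CON were 5.78, 5.37 and 5.76 for Acacb and 8.56, 8.29 and 8.52 for Fasn. Acss2, which activates acetate, fell in HAMS relative to LAMS by 0.49 (adjusted p = 0.0168). Gpam, which starts glycerolipid synthesis, fell in HAMS relative to CON by 0.47 (adjusted p = 0.0171, and 0.0517 without CON replicate 2). Scd, the stearoyl-CoA desaturase, had its lowest mean in HAMSB but did not pass: 5.91 ± 0.43 in HAMSB, against 6.82 ± 0.62 in HAW, 6.72 ± 0.71 in LAW, 6.75 ± 0.90 in HAMS, 6.87 ± 0.78 in LAMS and 6.22 ± 0.65 in CON, with HAMSB minus LAMS at -0.96 (adjusted p = 0.0636).

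**Figure D5:**
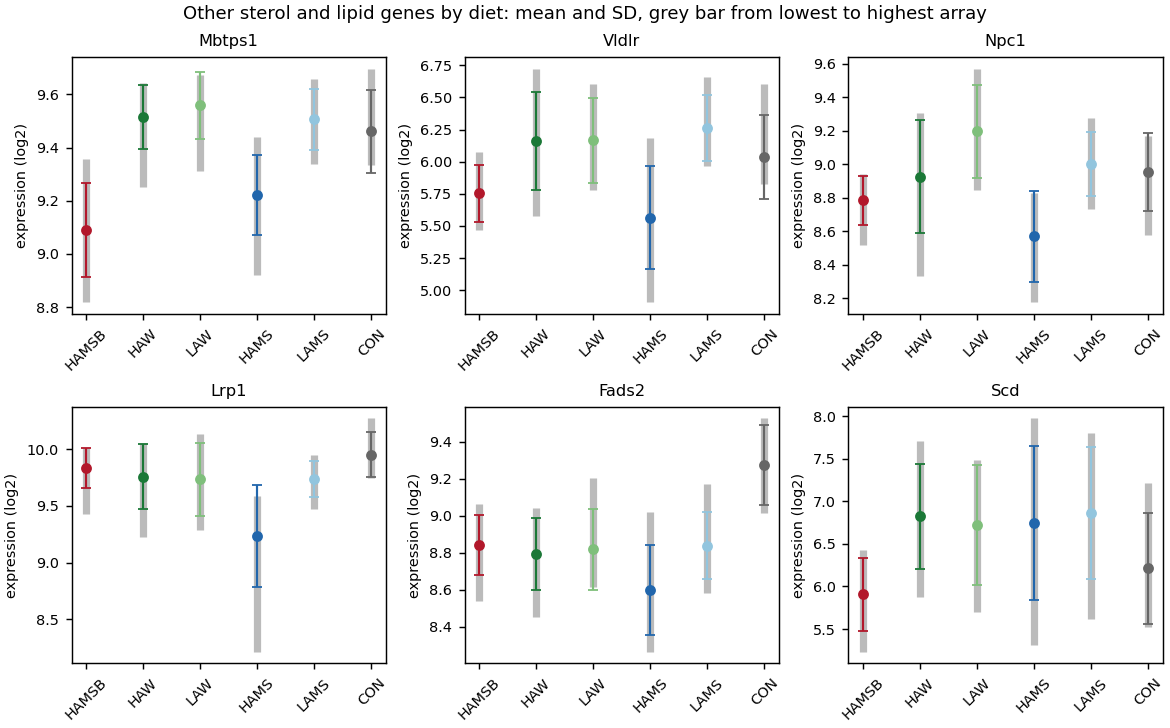
Expression (log2) of 6 further sterol and lipid genes by diet; coloured points and bars are the mean and SD, and grey bars run from the lowest to the highest array. Mbtps1 is lowest in HAMSB (9.09), Vldlr, Npc1, Lrp1 and Fads2 are lowest in HAMS, and Fads2 is highest in CON (9.27).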

How the data were processed

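The authors deposited 1 table of log2 expression values for 29214 probe sets in 43 arrays; they made it with RMA, per the submitters' processing notes, which give no version. That method subtracts background, gives all arrays 1 distribution of probe values and combines the probes of a set. The deposited values ran from 1.31 to 14.05. Arrays carry no read depth, and the number of animals limits the precision.

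Probe sets were named from the platform annotation: 15310 had 1 gene symbol, 323 several and 13581 none. Genes were kept at a median of at least 4.79 (percentile 25 of the singly annotated probe sets), which left 10828. Differences were tested two-sided with limma 3.58.1 (lmFit, eBayes) in R 4.3.3, in 1 model with a mean for each of 6 diets, in 15 comparisons and a moderated F test; HAMSB minus LAW and HAMSB minus HAW were added after values were seen. The fits were tested on simulated data. Levels of marker lists are means over their tested genes. The text names the 8 members, the 10 other genes that correlate best with the members' mean, 8 fixed lipid genes where measured, and at most 12 further lipid genes that passed, by smallest F p. The members and lists were chosen with earlier results of these data known. Replicate numbers did not pair arrays of different diets: arrays with the same number had a median correlation of -0.05 over 94 pairs, and others of 0.02 over 671.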

Additional observations from a re-analysis of the deposited data

Results flagged for a closer look

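Among 42 sets of a member's values within a diet, 2 held an array far from the rest by Dixon's test at the 95% level, and chance gives about 1 in 20 such sets. Fdft1 in HAMSB replicate 6 read 9.32, above the other HAMSB arrays. Sqle in CON replicate 2 read 7.54, below the other 4 CON arrays, which read 8.22 to 8.45.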

How the results depend on the processing

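The percentages here are the shares of all genes called under the same setting. The count of members that passed the F test, 1 in the model reported (31%), was 3 with array weights (69.3%: Insig1, Lss, Cyp51) or array spread as a covariate (14.1%: Insig1, Lss, Idi1). It was 2, Insig1 and Lss, with a stricter filter (39%), centred arrays (24.8%), the animal number range as a block (29%) or the B cell level as a covariate (27.6%), and 0 with the naming pattern as a block (12.9%). For HAMSB minus LAMS (0) it was 1, Insig1, with array weights (34.5%), the stricter filter (11%), a prior that was trended and robust (6.81%), every probe set in the fit (7.22%), centred arrays (9.5%), the B cell (13.6%) or epithelial level (12.6%), or only the compared diets (7.05%). For HAMSB minus HAMS (1) it was 2 with array weights (35.1%) and 0 with the epithelial level (0.00924%). For HAMSB minus LAW (1) it was 2 with array weights (39%), the epithelial level (22.1%) or only the compared diets (21.3%), and 0 with the naming pattern (0.0831%) or array spread (12.7%); for HAMSB minus HAW (1) it was 0 with the naming pattern (2.03%). With array weights it was 3 for HAW minus HAMS (43.7%) and 1, Lss, for LAW minus CON (2.52%) and the Western mean minus CON (6.87%), each 0 as reported; LAW minus CON also had 1 with the epithelial level (0.942%). HAMS minus CON (0) had 1, which was Lss with centred arrays (16%) and Idi1 with the naming pattern (20.2%) or array spread (3.08%). With 1 array left out the counts ran from 1 to 2 for the F test and HAMSB minus HAMS, and from 0 to 1 for HAMSB minus LAMS, HAW minus HAMS and HAMSB minus LAW. With the replicate number as a block, which does not pair these arrays, Insig1 in HAMSB minus HAMS was -0.62 (adjusted p = 0.00803 by limma), no count of members passing moved, and 14 of 43 calls of other lipid genes were lost. The causes were not tested. The median correlation of member pairs was 0.387 to 0.577 over the settings run. Among the called differences that were rerun, which leave out those of Lbr, Sc5d and Insig2, no direction reversed. With 5 to 9 arrays per diet, differences smaller than the intervals given could not be resolved.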
